A study of Mus musculus with 12 samples.

Results

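The CatSper and sperm potassium channel subunits were the 10 genes Catsper1, Catsper2, Catsper3, Catsper4, Catsperb, Catsperd, Catsperg1, Catsperg2, Kcnu1 and Lrrc52. They were chosen by name from the 24661 genes with a symbol, and transcripts with class code =, c, j or o (RefSeq transcripts and assembled transcripts that share exon sequence or splice junctions with them) were summed, which took 92 of 71967 transcripts. Total RNA came from the testes of 12 C57BL/6 mice labelled WT, 3 at each of 3, 6, 12 and 18 months of age (3M, 6M, 12M and 18M), with no treatment or transgene, and whether the mice of an age shared a litter was unclear. The deposited counts summed to between 50924104 and 71803379 reads per library. The p-values test differences between ages against the spread between mice. In a fit of a straight line on age, that spread includes departures of the ages from the line. In 4 instances a mouse stood apart in the share of a gene's reads held by its RefSeq transcript. These were 3M mouse 1 and 18M mouse 2 for Catsperb, and 12M mouse 3 and 18M mouse 2 for Catsperg1. Their gene sums lay among those of the other mice or at the edge of them, and the transcript results below name these mice. Single assembled transcripts also stood apart in further mice and in Catsperg2, as given there.

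CatSper is the calcium channel of the sperm tail that is needed for hyperactivated swimming and male fertility. The CatSper pore is built from separate proteins, Catsper1 to Catsper4, which are joined by auxiliary proteins including Catsperb, Catsperd and Catsperg. Kcnu1, also called Slo3, forms the pH-sensitive potassium channel that hyperpolarizes mouse sperm, and Lrrc52 is its auxiliary subunit. These genes are transcribed in developing germ cells of the testis, so testis RNA shows the supply of their transcripts to developing sperm.

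The pore-forming genes are shown by the coding sequence around the ion filter, because it is the feature they share. The bases below run from 30 before the filter to 30 after it, in the GENCODE vM21 transcripts Catsper1-201, Catsper2-201, Catsper3-201 and Catsper4-201 (GRCm38), and capitals mark the in-frame pattern ACNNNNGANNNNTGG (N is any base, sense strand only), which spells threonine, any residue, an acidic residue, any residue and tryptophan.
Catsper1: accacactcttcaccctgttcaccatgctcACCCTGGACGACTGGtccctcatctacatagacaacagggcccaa
Catsper2: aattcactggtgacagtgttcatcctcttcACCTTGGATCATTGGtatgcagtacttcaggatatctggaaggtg
Catsper3: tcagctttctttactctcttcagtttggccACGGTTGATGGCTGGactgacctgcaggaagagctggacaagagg
Catsper4: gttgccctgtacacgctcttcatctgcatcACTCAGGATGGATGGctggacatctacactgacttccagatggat
Each of the 4 genes held the pattern once in frame, at codons 534, 293, 225 and 235. It was present in 4.38% of the 22500 genes with a coding sequence and absent in frame from the 5 auxiliary genes, while Kcnu1 held 1 match, at codon 1094. A potassium filter was searched in the form that Kcnu1 carries, ACNGTNGGNTTNGGNGA, with phenylalanine or leucine between its glycines. Filters with tyrosine in that place do not match. This pattern was found in frame in 0.04% of the coding sequences. Among the members it occurred in Kcnu1 alone, at codon 276, and is shown in capitals for transcript Kcnu1-201.
Kcnu1: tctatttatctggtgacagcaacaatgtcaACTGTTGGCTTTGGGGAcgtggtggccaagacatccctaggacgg
It lies in the exon at chr8:25881297-25881467 on the plus strand, which 96.6% ± 0.578 (SD, n = 12) of Kcnu1 FPKM used with this start, and 3.39% ± 0.578 used with a start farther upstream.

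The 10 genes were all well expressed. FPKM, a read density scaled to transcript length and library size, was summed over the transcripts of a gene so that genes could be compared per length. Catsper2 was the highest, at 130.5 FPKM ± 5.31 (SD, n = 12 mice), followed by Catsperg1 at 81.5 ± 4.13, Catsper1 at 70.9 ± 4.31 and Catsper4 at 69.2 ± 5.11. Catsperd had 55.7 ± 2.16, Catsperg2 52.1 ± 2.26 and Catsper3 46.0 ± 3.58 FPKM. Kcnu1 and its partner Lrrc52 had 29.8 ± 2.37 and 29.5 ± 2.41 FPKM, and Catsperb was the lowest at 21.4 ± 1.28. The members thus stood above 85.7% to 97.6% of genes with a symbol. In the order of levels, Catsper1 and Catsper4 differed by 1.68 FPKM with an SD of 4.40 over the mice, and Kcnu1 and Lrrc52 by 0.268 with an SD of 2.26, so neither pair differed by more than 1 SD. The other 7 neighbouring pairs differed by more than 1 SD. Among the pore genes, the Catsper2 level was 2.86 ± 0.303 times that of Catsper3 and 1.85 ± 0.156 times that of Catsper1 within a mouse.

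**Figure D1:**
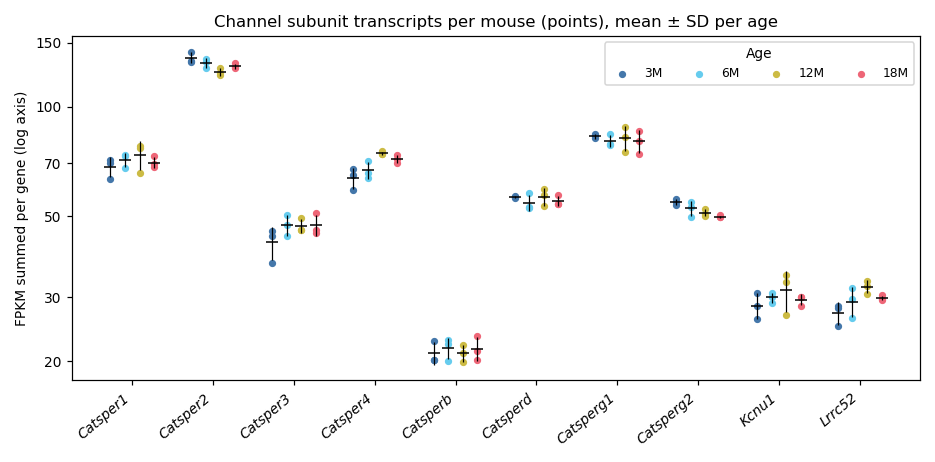
FPKM summed per gene (vertical log axis) for the 10 subunit genes, with 1 point per mouse coloured by age and a bar for the mean and SD of the 3 mice. Catsper2 lies highest, between 122 and 142 FPKM, and Catsperb lowest, between 19.9 and 23.5, and the ages lie close together in each gene.

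No member gene passed the test of any comparison between ages, and all 10 passed the filter on low counts in each. The comparison of 3M with 18M asked whether transcripts of the channels changed with testicular aging. Counts were tested with the edgeR quasi-likelihood test, and an age pair counted as called at an adjusted p up to 0.05 together with a change of at least 1 log2 unit. Between 3M and 18M, 0 of 10 members were called, beside 0.0528% of the 24635 features tested (genes, and assembled loci or rows of other classes kept apart from them), and DESeq2 also called 0. At an unadjusted p of 0.05 or less edgeR counted 0 members, beside 12% of all features. The median log2 difference of the members, 18M minus 3M, was 0.0098, beside 0.0063 over all features tested. The 95% confidence intervals bound each change: the widest, of Catsper3, ran from -0.0545 to 0.379 on the log2 scale, which makes 1.301-fold the largest change that any of the 10 intervals allowed.

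**Figure D2:**
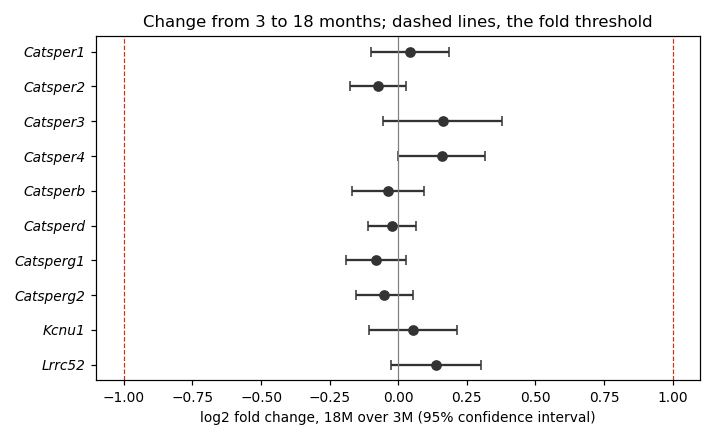
Log2 fold change of 18M over 3M (horizontal axis) with its 95% confidence interval from edgeR for each subunit gene, 3 mice per age, with dashed lines at the fold threshold of 1. All intervals lie between -0.190 and 0.379, within the dashed lines.

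Catsper4, a pore subunit, showed the smallest p among the members. Its level in CPM (read counts scaled to library size, TMM-normalised) was 139.7, 127.7 and 151.6 in the 3M mice, 143.1, 140.9 and 151.6 at 6M, 163.5, 164.0 and 156.6 at 12M, and 159.8, 154.8 and 152.1 at 18M. The 12M mice all lay above the 3M and 6M mice, and the 18M mice lay above the 3M mice. The slope on age in the edgeR fit of all 12 mice was 0.0117 log2 units per month (SE 0.0041), or 12.9% over 15 months (95% interval 2.93% to 23.8%), with an adjusted p of 0.226. This missed the threshold, and 0 of 10 members were called on the slope, beside 0.17% of 25242 features. Catsper4 was the 1 member at an unadjusted p of 0.05 or less, beside 15.4% of all features tested. DESeq2 called 0 members on the slope. In the edgeR test for any difference between ages, 0 members were called, beside 0.0792% of features, and Catsper4, again the 1 member at an unadjusted p of 0.05 or less beside 9.04% of features, had an adjusted p of 0.480. DESeq2 called 0 in that test.

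The steps between neighbouring ages gave no calls either. Between 3M and 6M, 0 of 10 members were called, beside 0.061% of 24594 features, with 0 at an unadjusted p of 0.05 or less in edgeR beside 3.92% of features. Between 6M and 12M, 0 were called, beside 0.0325%, with Catsper4 the 1 member at an unadjusted p of 0.05 or less beside 7.48% of features (log2 difference 0.15, SE 0.053, edgeR adjusted p = 0.655). Between 12M and 18M, 0 were called, beside 0.0203%, with 0 at an unadjusted p of 0.05 or less in edgeR beside 3.55% of features. DESeq2 called 0 members in these 3 steps.

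The other pore genes were not called either. Catsper1 had 154.8, 139.1 and 157.6 CPM at 3M and 152.8, 160.8 and 150.4 at 18M, and the ages overlapped. Catsper2 had 321.5, 318.1 and 341.7 CPM at 3M and 307.8, 315.9 and 307.1 at 18M. Its 18M mice all lay below its 3M mice, and the difference was -0.07 on the log2 scale (SE 0.043, edgeR adjusted p = 0.518). Catsper3 had 62.8, 52.9 and 65.6 CPM at 3M and 72.5, 64.4 and 65.6 at 18M, and the lowest value was that of 3M mouse 2. The ages overlapped, and the log2 difference of 0.16 (SE 0.091, edgeR adjusted p = 0.501) was the largest in size among the 10 members, next to 0.16 (SE 0.067, adjusted p = 0.417) for Catsper4.

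Among the potassium channel genes, Kcnu1 had 125.9, 118.4 and 140.2 CPM at 3M and 132.0, 136.3 and 129.9 at 18M, which overlapped. Lrrc52 had 34.3, 29.7 and 33.6 CPM at 3M and 35.2, 36.3 and 35.5 at 18M, so the 18M mice lay above the 3M mice. Its log2 difference was 0.14 (SE 0.068, edgeR adjusted p = 0.462). In all, 4 of the 10 members (Catsper2, Catsper4, Catsperg1 and Lrrc52) had 3M and 18M mice that did not overlap, beside 24% of the 11679 genes with a mean of 5 CPM or more. The coefficient of variation over the 12 mice had a median of 5.86% in the members on the CPM scale and 7.83% in those 11679 genes.

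Of the auxiliary genes, Catsperb had 82.1, 89.4 and 80.1 CPM at 3M and 79.3, 83.5 and 81.9 at 18M, and Catsperd 168.8, 168.3 and 163.7 at 3M and 162.6, 161.9 and 167.3 at 18M. The ages overlapped in both genes. Catsperg1 had 344.9, 356.6 and 354.8 CPM at 3M and 316.3, 335.4 and 344.6 at 18M, which did not overlap (log2 difference -0.08, SE 0.046, edgeR adjusted p = 0.506). Catsperg2 had 274.3, 279.0 and 273.0 CPM at 3M and 253.9, 274.6 and 267.5 at 18M, with overlap. In FPKM both verdicts turned: Catsperg1 overlapped (81.8 to 84.3 at 3M and 74.2 to 85.9 at 18M), and Catsperg2 did not (53.6 to 55.6 at 3M and 49.6 to 50.3 at 18M).

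The shared sequence of Catsperg1 and Catsperg2 limits how their reads can be told apart. Both genes lie on the minus strand, at chr7:29181321-29214035 and chr7:29697219-29727032, and both encode the gamma subunit. Over 3432 aligned coding bases they were identical at 3310, or 96.4%, and the longest identical run was 341 bases. Of the windows of 101 bases, the read length implied by the deposited coverage, 21.1% of Catsperg1-212 and 20.4% of Catsperg2-201 also occurred in the other gene, so reads there depend on how the authors' quantification shared them. Of the other members only Catsperb shared such windows, 7.13% of them, with Gm18795. Differences between Catsperg1 and Catsperg2 were unevenly spread, and a 120-base stretch with 19, the most in any stretch of that length, is shown with the differing bases in capitals (coding positions 1642 to 1761 in each).
Catsperg1: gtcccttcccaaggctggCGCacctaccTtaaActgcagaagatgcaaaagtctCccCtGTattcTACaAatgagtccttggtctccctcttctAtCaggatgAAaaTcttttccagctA
Catsperg2: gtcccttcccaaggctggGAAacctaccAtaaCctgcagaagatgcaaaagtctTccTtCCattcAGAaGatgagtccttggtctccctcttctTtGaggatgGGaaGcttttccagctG
This stretch overlaps the 159-base coding exon at chr7:29195413-29195571, which held 18 of the 122 differences. Transcripts with that exon carried 15.8% ± 3.03 (SD, n = 12) of the FPKM of the Catsperg1 transcripts that include or skip it. The share lay between 10.1% and 21.0% in the 12 mice.

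The split of reads among transcripts was much the same in all mice for some members and stood apart in single mice for others. Catsper1 and Catsper2 had 1 transcript each. In Catsper3, NM_001252487 held 84.4% and NM_001252488 10.2% of FPKM. In Catsper4, NM_177866 held 84.3% and the assembled MSTRG.14657.1 15.2%, and in Lrrc52 the RefSeq transcript NM_001013382 held 90.3%. Assembled transcripts outweighed RefSeq in Kcnu1, where MSTRG.19492.4 held 59.5% (51.1% to 65.4%), MSTRG.19492.2 20.4% and NM_008432 15.2%. Catsperd was split among NM_175350 with 23.3%, MSTRG.9242.7 with 18.7% and MSTRG.9242.6 with 15.1%. In Catsperg2, NM_029714 held 52.1%, MSTRG.18046.1 14.5% and MSTRG.18046.2 14.4%. The RefSeq transcript of Catsperb, NM_173023, held 14.1% and 16.01% of its FPKM in 18M mouse 2 and 3M mouse 1, and between 74.3% and 84.1% in the other 10 mice. MSTRG.4681.10 of Catsperb held 11.1% on average. In those same 2 mice MSTRG.4681.8, a 28-exon transcript, took 41.5% and 34.5%, and it was at 0% in the other 10. The RefSeq transcript of Catsperg1 held 28.2% and 27.6% in 12M mouse 3 and 18M mouse 2, and between 0.908% and 3.40% in the other 10. The most abundant Catsperg1 transcript was MSTRG.18035.14, which held 30.3% of its FPKM, followed by MSTRG.18035.29 with 12.6%. The gene sums of these mice were 20.2 and 23.4 FPKM for Catsperb, the second being the highest of the 12, and 88.0 and 85.9 FPKM for Catsperg1, above the other 10 mice. Less abundant assembled transcripts stood apart as well. MSTRG.18035.8 of Catsperg1 held 12.1% in 12M mouse 1 and 11.2% in 18M mouse 3, and at most 0.486% in the other mice. MSTRG.18046.6 of Catsperg2 held 6.90% in 12M mouse 3 and 5.57% in 18M mouse 2, and at most 1.69% in the other mice.

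**Figure D3:**
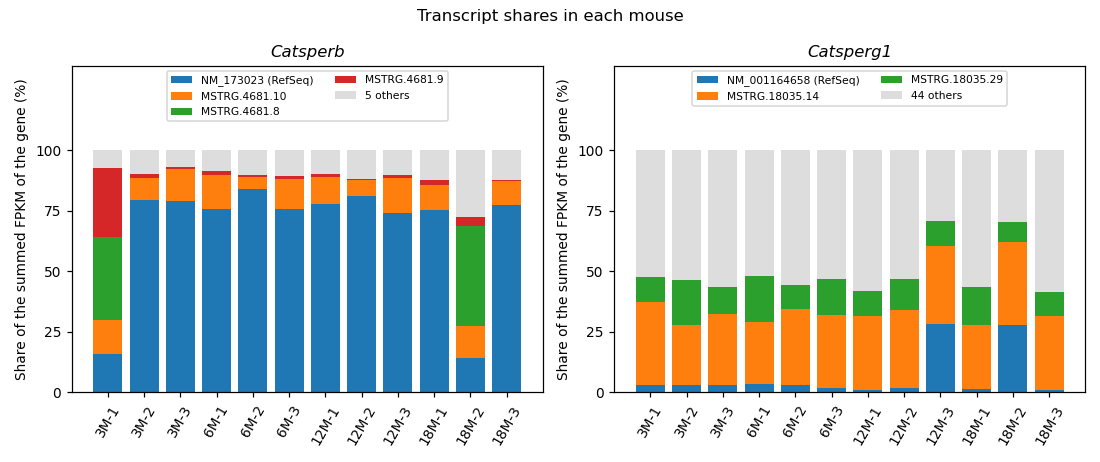
Share of the summed FPKM of Catsperb (left) and Catsperg1 (right) held by named transcripts in each mouse, with other transcripts in grey. The RefSeq transcript of Catsperb falls to 16.01% and 14.1% in 3M mouse 1 and 18M mouse 2, and that of Catsperg1 reaches 28.2% and 27.6% in 12M mouse 3 and 18M mouse 2.

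The share of a gene's FPKM in RefSeq transcripts was compared between 3M and 18M in the 7 members in which it varied. The differences, 18M minus 3M, ran from -5.23 percentage points in Catsperd to 7.10 in Catsperg1. No exact permutation p (two-sided) was below 0.4, and all adjusted values were at least 0.817. With 3 mice against 3 the smallest exact p is 0.1, so this design cannot pass the threshold. At transcript level, edgeR called 0 of 85 member transcripts tested on the slope, beside 0.0103% of 58289, with 21 at an unadjusted p of 0.05 or less, beside 7.15%. Of these, 19 were Catsperg1 transcripts, and 18 of the 19 had a negative slope. Without 3M mouse 1 the number was 10 transcripts, 9 of them of Catsperg1. Without 12M mouse 3 it was 19, with 17 of Catsperg1, and without 18M mouse 2 it was 19, with 16 of Catsperg1. DESeq2 called 0 on the slope. Between 3M and 18M, edgeR called 0 of 85, beside 0.108% of 54472, with 3 at an unadjusted p of 0.05 or less, beside 5.4%. DESeq2 called 1, MSTRG.4681.3 of Catsperb (log2 difference 6.00, SE 1.38, adjusted p = 0.0011), where edgeR gave an adjusted p of 0.850. Its reads were 8, 1 and 1 in the 3M mice and 17, 472 and 197 in the 18M mice, so the ages did not overlap and the 18M mice differed widely. At the ages between, they were 1, 125 and 1 at 6M and 132, 116 and 11 at 12M, so mice of 1 age differed widely there too.

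Several members used alternative exons or splice sites in every mouse. In Catsper3, 3 acceptors of the same exon were used, which keeps the reading frame: the full 240 bases (chr13:55798744-55798983, plus strand) in 84.4% ± 2.62 (SD, n = 12) of FPKM, 201 bases in 5.32% ± 1.37 and 87 bases in 10.3% ± 1.78. The exon is shown with the 153 bases that the shortest form leaves out in capitals, because they code for 51 residues of a pore subunit.
Catsper3: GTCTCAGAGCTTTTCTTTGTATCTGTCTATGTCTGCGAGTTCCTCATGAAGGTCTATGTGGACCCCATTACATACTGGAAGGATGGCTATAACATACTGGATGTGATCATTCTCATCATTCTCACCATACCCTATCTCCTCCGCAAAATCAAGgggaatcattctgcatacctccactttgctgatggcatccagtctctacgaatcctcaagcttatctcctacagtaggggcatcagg
In Catsperd, the exon at chr17:56635490-56635607 (plus strand) was left out of most transcripts, and transcripts with it held 26.4% ± 5.18 of the FPKM that includes or skips it. Its length of 118 bases is not a multiple of 3, and it is coding in Catsperd-201.
Catsperd: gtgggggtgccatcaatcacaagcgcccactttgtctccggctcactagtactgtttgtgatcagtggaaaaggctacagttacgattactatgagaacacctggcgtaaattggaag
In Kcnu1, 84.8% ± 2.31 of FPKM used an acceptor 5 bases upstream of the RefSeq acceptor at chr8:25889962, and 15.2% ± 2.31 used the RefSeq one. The upstream acceptor was in no GENCODE vM21 transcript of the gene, and its sequence was not checked. The difference of 5 bases is not a multiple of 3. Both Kcnu1 shares come from the FPKM of assembled transcripts, not from counts of junction reads. In Catsperb, the 145-base exon at chr12:101520503-101520647 was included in 74.0% ± 10.1, with 50.8% in 3M mouse 1, 55.9% in 18M mouse 2 and between 74.7% and 84.3% in the other 10 mice. Between 3M and 18M, exact permutation tests of these shares gave p from 0.3 to 1, where 0.1 is the smallest possible.

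Assembled transcripts of Catsperg1 and Catsperg2 kept introns at matching positions. The shares are FPKM of assembled transcripts, intron and junction reads were not counted, and unspliced RNA was not told apart from retained introns. The 51-, 64- and 130-base coding exons are 100% identical in the 2 genes, so the split of their reads depends on the authors' quantification. The other coding exons beside the 4 introns below are 84.03% to 98.96% identical. At 4 introns between exons of equal length in both genes, transcripts retaining the intron were abundant. At the intron between the 51- and 130-base exons they held 71.7% ± 7.85 (SD, n = 12) of Catsperg1 FPKM and 26.5% ± 2.91 of Catsperg2 FPKM, and Catsperg1 was higher in 12 of 12 mice. Between the 157- and 64-base exons the shares were 67.2% ± 6.90 and 45.7% ± 4.45, with Catsperg1 higher in 11 of 12 mice. Between the 199- and 119-base exons they were 36.3% ± 9.06 and 26.4% ± 2.87, with Catsperg1 higher in 10 of 12 mice. Between the 96- and 90-base exons they were 37.4% ± 8.85 and 36.04% ± 4.74, with Catsperg1 higher in 9 of 12 mice. Mouse 3 at 12M and mouse 2 at 18M, where the RefSeq transcript of Catsperg1 was high, had the lowest Catsperg1 shares at all 4 introns.

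**Figure D4:**
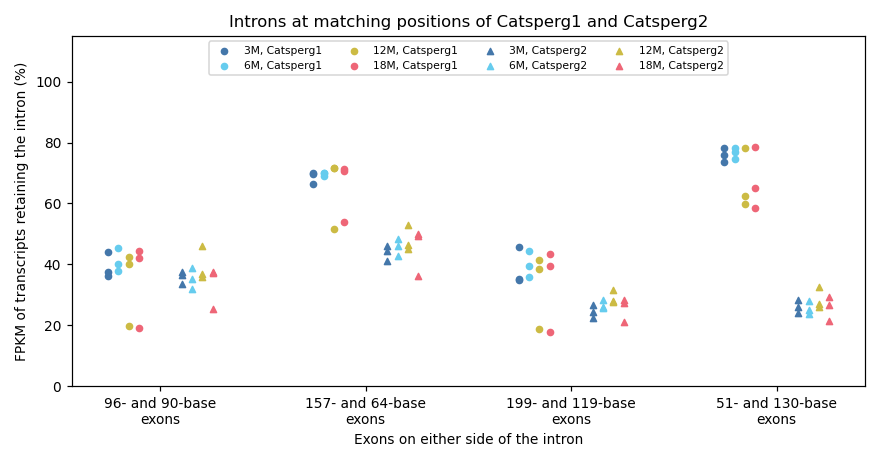
Percentage of FPKM in transcripts that retain each of 4 introns (vertical axis), for Catsperg1 (circles) and Catsperg2 (triangles), 1 symbol per mouse coloured by age. At the intron between the 51- and 130-base exons, Catsperg1 lies between 58.6% and 78.4% and Catsperg2 between 21.3% and 32.6%.

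Of 9 other CatSper subunits and partners, 7 had a row. None was called on the slope, and 1, C2cd6, was called in the test for any difference. C2cd6 (listed as Als2cr11), a protein of the CatSper complex, had 614.5, 604.0 and 582.9 CPM at 6M and between 304.6 and 371.8 in the other 9 mice (edgeR adjusted p = 0.00053). The rows of the same assembled locus that carry no symbol went the other way, with 3482 to 4199 reads at 6M and 15765 to 22899 elsewhere. Summed over the whole locus, 6M had 33972 to 37364 reads and the other ages 33576 to 46058, and the edgeR test for any difference gave an adjusted p of 0.852. The other 6 were not called in any of these tests. Catsperz (Tex40) had 283.7 ± 23.5 CPM at 3M and 298.6 ± 8.86 at 18M (SD, n = 3), Catspere2 (Gm16432) 94.6 ± 11.2 and 86.7 ± 14.97, and Tmem262 (BC048609) 17.6 ± 3.39 and 18.6 ± 3.06. Slco6c1, an organic anion transporter family member, had 141.1 ± 6.75 and 132.4 ± 2.29 CPM, and Trim69 160.0 ± 7.35 and 152.5 ± 2.01. Efcab9, the calcium sensor that partners Catsperz, had 90.0 ± 4.89 CPM at 3M and 101.2 ± 3.39 at 18M, and a slope of 0.012 log2 units per month (SE 0.0039, edgeR adjusted p = 0.198).

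**Figure D5:**
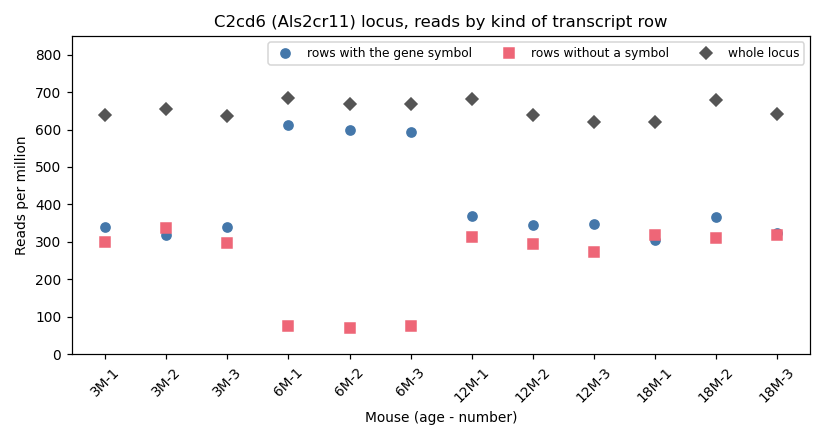
Reads of the C2cd6 (Als2cr11) locus, scaled to library size as RPM, in each mouse, split into rows with the gene symbol, rows without it and their sum. At 6M the rows with the symbol lie at 594 to 611 and those without at 68.4 to 75.2, while the sum lies between 620 and 686 in all mice.

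Of the 10 relatives of the BK potassium channel, the large-conductance channel of the family to which Kcnu1 belongs, 0 were called on the slope, between 3M and 18M or in the test for any difference. Kcnmb4, a BK beta subunit, was highest, at 60.5 ± 0.881 CPM at 3M and 62.6 ± 4.98 at 18M (SD, n = 3), and the BK pore gene Kcnma1 had 4.75 ± 0.147 and 3.87 ± 0.365. Lrrc55 had 5.28 and 5.63 CPM at these ages, Kcnt1 4.10 and 4.22, Kcnmb3 2.45 and 3.26, and Lrrc26 0.979 and 1.11. The means of Kcnt2, Kcnmb1, Kcnmb2 and Lrrc38 over the 12 mice were under 1 CPM. The levels of Kcnu1 in the same unit were 118.4 to 154.5 CPM. Of the 26 genes of sperm ion transport and capacitation, 24 were tested and 0 were called. The smallest p-values belonged to the sperm sodium-proton exchanger Slc9c1 (slope -0.014 log2 units per month, SE 0.0045, edgeR adjusted p = 0.205), Ropn1 (0.012, SE 0.0042, adjusted p = 0.217) and the calcium pump Atp2b4 (-0.020, SE 0.0067, adjusted p = 0.219).

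Among cell type markers, spermatid genes were abundant and epididymis genes near 0 in these testis libraries. Round spermatid markers (6 of 6 found) summed to between 1220 and 1435 CPM at 3M and between 1461 and 1489 at 18M, and elongating spermatid markers (8 of 8) to between 18400 and 20300 CPM at 3M and between 19340 and 22430 at 18M. The round spermatid sums of these ages did not overlap, and the elongating spermatid sums did. None of either list was called, and their part in the Catsper4 and Lrrc52 values was not tested. In bulk tissue, fewer cells of a type and less RNA per cell cannot be told apart. Spermatogonia, spermatocyte, Sertoli, peritubular and endothelial, and macrophage markers had 0 calls. Leydig cell markers had 2 calls of 8 on the slope, beside 0.17% of all features. These were the steroidogenic enzymes Cyp17a1 and Cyp11a1, which both fell (edgeR adjusted p = 0.00013 and 0.0054). Between 3M and 18M the Leydig cell markers had 0 calls, and in the test for any difference 1, Cyp17a1. The epididymis list summed to between 3.82 and 4.82 CPM, with 5 of its 6 genes under 1 CPM and Crisp1 at 0.057 to 0.337.

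Genes most like the members in pattern were sought among 11669 others by the root mean square difference of centred log2(CPM + 1) over the 12 libraries. Closest to the mean of the CatSper genes were 9530077C05Rik at 0.019, Zc3h14 at 0.020 and Fkbp4 at 0.023, beside a median of 0.107, while the 8 CatSper genes themselves lay between 0.051 and 0.099 from their mean. A mean of 8 genes evens out what is particular to each, so any gene of nearly even level can lie close to it. Whether these genes share a pattern with the members was not tested. Closest to Kcnu1 were Pacs2 at 0.042, Pde4a at 0.044 and Efhb at 0.047, beside 0.148, and among the members Catsper1 lay at 0.039, while the other 8, with the partner Lrrc52 at 0.104, lay between 0.089 and 0.134.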

How the data were processed

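Total RNA from 12 mouse testes was depleted of ribosomal RNA and sequenced paired-end on a kit that does not mark strand. Alignment to mm10 used HISAT2 and transcript assembly used StringTie, per the submitters' processing notes, without versions. The deposited counts are estimated counts (expected counts) from coverage, transcript length and read length, already whole, and the deposited FPKM values are scaled by length and library by the authors. Counts were summed per gene over class =, c, j and o rows, rows of other classes were kept as separate features (31658 genes and loci in all), and the sums were tested in R 4.3.3 by the quasi-likelihood test of edgeR 4.0.16 (TMM, filterByExpr, Benjamini-Hochberg over all features tested), with DESeq2 1.42.0 and limma 3.58.1 as alternatives. The pairwise fits held the libraries of both ages, and the slope and the test for any difference held all 12. Exact permutation tests (scipy 1.17.1) were two-sided. Retained introns and exons were found by rule in the deposited exon structures: an intron spliced in 20% or more and retained in 10% or more of FPKM, and an exon included and skipped in 10% or more. This rule and the assembled-locus sums were added after seeing the data. GENCODE vM21 (GRCm38, the same build) gave coding sequence and loci. Symbols absent from the table were matched through RefSeq gene identifiers of GRCm38.p6, and Catspere1 and Tmem249 had no match. All 10 members, every listed CatSper partner and BK relative, and the 3 ion transport genes of smallest p were named by rule. Members and gene lists were chosen with earlier results of these data known. The fits were tested on simulated data. Intervals cover the model error only. Mouse numbers repeat across ages but different mice carry them, and the deviations of same-numbered libraries had correlations from -0.076 to 0.073, so the numbers do not pair the mice.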

Additional observations from a re-analysis of the deposited data

Results flagged for a closer look

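Transcripts with a member's symbol outside classes =, c, j and o were left out of the gene sums but held reads in every library, above the 3 reads that a count of 0 allows. The Catsperg1 rows, all of class i (inside an intron), had a median of 2434 reads per library, between 1379 and 4259. The Catsper3 rows, of class x (on the opposite strand), had a median of 282, and with a library that does not mark strand they cannot be told apart from reads of the gene where they overlap. The Catsper2 rows, of classes i and p, had a median of 161.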

How the results depend on the processing

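The number of members called stayed at 0 in 148 of 149 refits over the 8 fits, which changed normalization, filter, test, unit, classes or samples. The exception was DESeq2 at transcript level between 3M and 18M, with 1; 2 more member transcripts had DESeq2 adjusted p-values under the threshold without the fold (0.0313 for MSTRG.18046.3 and 0.0351 for NM_177866). With mouse number as a replicate block, 0 members were called in every fit. The numbers do not pair the mice, since the deviations of same-numbered libraries correlated at -0.076 to 0.073 and 2 of 12 libraries were closest to their own number. Calls over all features (genes and loci) varied widely. For the slope there were 43, against 562 with DESeq2, 22 with the block and 9 with class = rows alone. For 3M against 18M there were 13, against 76, 0 and 39, and 21 with all 12 libraries fitted. For 3M against 6M there were 15, against 42 with DESeq2 and 5 with the block, for 6M against 12M 8, against 51 and 2, for 12M against 18M 5, against 25 and 1, and for any difference 20, against 389 with DESeq2. Transcript calls were 6 on the slope, against 749 with DESeq2 and 3 with the block, and 59 between 3M and 18M, against 943 and 0. With 1 library left out the slope gave 13 (without 18M mouse 3) to 116 (without 18M mouse 1) calls, 3M against 18M 15 to 30, and transcripts between 3M and 18M 8 to 25. Signs of member differences that missed the threshold did change: the Catsperd slope took the other sign in 8 of 23 alternatives, and Catsperg1 between 3M and 18M reached 1.81 log2 units, against -0.08, with class = rows alone. That Catsperg1 value rests on 18M mouse 2. Its only class = transcript had 478, 529 and 529 reads at 3M and 236, 4774 and 202 at 18M.

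Mean FPKM moved by more than 1 SD with only class = rows: Catsper4 58.7, Catsperb 14.4, Catsperd 13.0, Catsperg1 5.53, Catsperg2 27.2, Kcnu1 4.52 and Lrrc52 26.7. With every class code Catsper3 had 50.4 and Catsperg1 98.7. In reads per kilobase scaled by TMM library size, Catsper1 had 75.8, Catsper2 139.3, Catsperb 22.9, Catsperd 59.5, Catsperg1 87.1 and Catsperg2 55.6. Leaving out 1 of 12 mice cannot move a mean by 1 SD, so that refit could not test these levels. The 18M minus 3M share of RefSeq transcripts ranged, with 1 mouse left out, over -23.7 to 18.3 percentage points in Catsperb, -1.71 to 11.6 in Catsperg1, -8.15 to 0.594 in Catsperg2, -2.26 to 0.0533 in Kcnu1 and -2.38 to 0.102 in Lrrc52, so the sign there rests on single mice. With only class = rows, the Efcab9 slope was -0.0011, Cyp11a1 lost its call (adjusted p = 0.114) and C2cd6 lost its call (adjusted p = 0.854). In C2cd6 that setting leaves out the assembled MSTRG.327.7, the row that was high at 6M. The cause was not tested.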

Other observations

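Transcripts of Catsperg2 that retain the 3445-base intron at chr7:29701223-29704667 held 9.99%, 9.31% and 8.34% of its FPKM in the 3M mice and 12.0%, 17.8% and 14.1% in the 18M mice. The ages did not overlap, and the exact permutation p was 0.1, the smallest that 3 against 3 allows (adjusted p = 0.82 over the 41 shares tested). Of 41 splicing shares 5 had this p, all in Catsperg2: this intron, the 1054-base intron with the same values, the 412-base exon at chr7:29700305-29700716 (79.6% at 3M and 69.4% at 18M) and the 90- and 96-base exons within it (85.6% and 77.7% each). These 5 shares are not independent. The same transcripts, MSTRG.18046.3, MSTRG.18046.5 and MSTRG.18046.6, retain both introns and skip all of these exons. The 5 shares were chosen after their values were seen.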
